A study of Mus musculus with 6 samples.

Results

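The 10 genes described here carry out cholesterol efflux, esterification and hydroxylation or belong to the pathway of the liver X receptors (LXRs). They were chosen by name: the receptor genes Nr1h2 and Nr1h3, the transporter genes Abca1, Abcg1, Abcg4 and Abca7, the lipoprotein gene Apoe, the ubiquitin ligase gene Mylip, the acyltransferase gene Soat1 and the hydroxylase gene Cyp46a1. All 10 were present among the 55341 gene symbols counted in each library, and all 10 were among the 16343 genes that passed the filter on low counts.

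Poly(A) RNA was sequenced from cultured mouse cerebellar granule neurons (CGNs) under the label DMSO, the vehicle (n = 3), or the label GSK-126, a small molecule that inhibits EZH2, the enzyme that deposits the repressive histone mark H3K27me3 (n = 3). The comparison asks which transcripts differ between the inhibitor and the vehicle in these cultures. According to the study's methods, precursors were isolated on a Percoll gradient from CD1 mice around the end of the first postnatal week, every culture received AraC to stop non-neuronal cells from dividing, the inhibitor was added a single time on an earlier or a later day before a common day of harvest, and a replicate was a preparation from the pooled cerebella of litters. The labels gave no dose, day of addition, strain or sex, so the length of exposure of these libraries is not known from them, and they named the source as cerebellum where the titles named CGNs.

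LXRs are nuclear receptors that are activated by oxysterols, the oxidized derivatives of cholesterol. They bind DNA together with a retinoid X receptor at a pair of repeated half-sites, and the genes they switch on export cholesterol from the cell or reduce its uptake. Brain cholesterol is made locally and is carried between cells largely on ApoE particles released by astrocytes, while neurons dispose of the excess through transporters and by hydroxylation.

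The total counts over genes ran from 8058760 to 12047837 per library, so a count of 3 corresponded to between 0.250 and 0.375 CPM (reads of a gene relative to the TMM-scaled size of its library). Mitochondrial genes held from 1.70% to 2.95% of counts, with overlapping ranges in the 2 groups. All 8 markers of granule neurons passed the filter, with a summed level from 3863 to 5770 CPM under DMSO and from 2769 to 4308 CPM under GSK-126. Markers of other cell types were present as well: the 10 astrocyte markers summed to between 2418 and 7571 CPM and the 5 fibroblast markers to between 6698 and 9749 CPM over the 6 libraries. In such bulk samples a smaller number of cells of a type and less RNA per cell cannot be told apart.

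The promoter of Abca1 is shown first, because Abca1 had the smallest p-value of the set in the fit with the replicate number (Abca7 had it with treatment only) and its promoter holds a sequence shaped like an LXR site. The RefSeq promoter windows of build GRCm38.p6, from 250 bases before to 50 bases after each start, held 8 of the 10 genes (Abcg1 and Abcg4 were not in the table). The repeat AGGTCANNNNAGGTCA was found on either strand in 5 of 32851 windows (0.0152%) and in none of the windows of these 8 genes. A looser form, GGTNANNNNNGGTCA, chosen after the Abca1 promoter was read, was found in 68 windows (0.207%), and Abca1 was the 1 gene of the 8 that held it. Its match lay on the strand opposite to the gene, from 67 to 53 bases before the start, so the printed strand shows its reverse complement, the 15 capitals that begin with TGACC. The same looser repeat occurred in 2 of the 8 further LXR targets that the table held, Fasn and Srebf1, and the 15 letters of the Abca1 match were repeated without a difference in Fasn. The stretches run 5′ to 3′ on the strand of the gene: chr4:53159896-53160055 for Abca1, chr11:120824728-120824787 for Fasn and chr11:60210592-60210671 for Srebf1, all minus strand, and chr13:45389582-45389741, plus strand, for Mylip. Capitals mark the looser repeat, the E-box CACGTG in Abca1, and the TATAAAAG box in Abca1 and Mylip.
Abca1: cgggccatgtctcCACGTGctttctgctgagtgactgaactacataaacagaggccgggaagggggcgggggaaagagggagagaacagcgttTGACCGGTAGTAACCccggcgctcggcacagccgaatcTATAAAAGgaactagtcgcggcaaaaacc
Fasn: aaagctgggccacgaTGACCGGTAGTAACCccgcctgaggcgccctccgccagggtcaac
Srebf1: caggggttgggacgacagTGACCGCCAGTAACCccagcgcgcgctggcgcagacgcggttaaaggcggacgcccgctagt
Mylip: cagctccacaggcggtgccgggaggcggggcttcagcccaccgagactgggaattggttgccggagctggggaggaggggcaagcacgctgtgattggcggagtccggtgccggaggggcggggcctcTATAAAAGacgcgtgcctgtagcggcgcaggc

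The E-box CACGTG was found in 7.15% of all windows (2349) and lay from 147 to 142 bases before the Abca1 start. TATAAAAG, searched on the strand of the gene alone and also chosen after the Abca1 promoter was read, was found in 389 windows (1.18%). Abca1 held it from 29 to 22 and Mylip from 32 to 25 bases before the start. These matches describe letters and are no evidence of a bound factor. The promoter of Abca1 was also rich in CpG, with an observed over expected ratio of 0.888 against a median of 0.384 over all windows. Nr1h2 (0.988), Cyp46a1 (0.972) and Mylip (0.818) were likewise high, while the 2 windows of Nr1h3 had ratios of 0.277 and 0.394.

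With treatment as the only term, 0 of the 10 genes passed an adjusted p-value of 0.05 in edgeR's quasi-likelihood test, as did 0% of all genes tested in the higher direction and 0% in the lower. At an unadjusted p under 0.05 this fit counted 981 of all genes and 2 of the 10, Abca1 and Abca7. DESeq2 with treatment only called 33 genes higher and 15 lower, none of them among the 10. The replicate numbers were taken to pair the libraries, a pairing read from these counts that the labels do not state. A second model added that number (the replicate block) and so compared the libraries within each number. With it, 3 of the 10 genes were called higher (Abca1, Mylip and Soat1) against 2.23% of all genes. It called 1 of the 10 lower (Abca7) against 1.42% of all genes, and 5 of the 10 had an unadjusted p under 0.05, as did 2735 of all genes. DESeq2 with the block called the same 3 genes higher and 0 lower. In what follows, rose and fell refer to the fit with the block, and each log2 value is GSK-126 over DMSO.

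**Figure D1:**
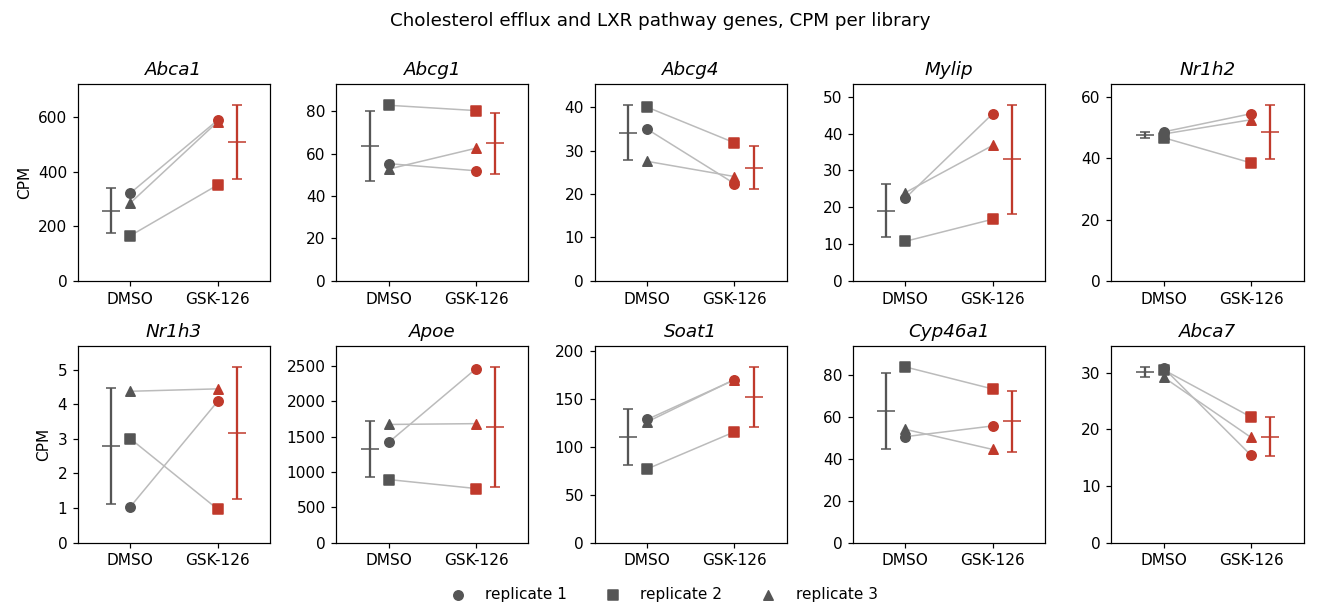
CPM of each of the 10 genes by group, with a shape for each replicate number, grey lines joining libraries of the same number, and bars for the mean and SD of 3 libraries. Abca1 lies higher and Abca7 lower in every GSK-126 library than in any DMSO library, and replicate 2 is the lowest in both groups for Abca1, Mylip, Soat1 and Apoe.

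The transporter gene Abca1 roughly doubled. ABCA1 moves cholesterol and phospholipid onto lipid-poor apolipoproteins, the first step in making an ApoE or high-density particle. Abca1 (chromosome 4, 53030787 to 53159895, minus strand, GRCm38) stood at 321, 166 and 285 CPM in DMSO replicates 1, 2 and 3 and at 588, 351 and 582 CPM in GSK-126 replicates 1, 2 and 3. Every GSK-126 library lay above every DMSO library, although the margin between GSK-126 replicate 2 and DMSO replicate 1 was small. The means were 257 ± 81.6 and 507 ± 135 CPM (SD, n = 3 each). Within the pairs the log2 ratio was 0.87, 1.08 and 1.03, so these ratios differed less from each other than the 3 DMSO libraries did. With the block Abca1 rose 1.99-fold (95% interval 1.71 to 2.32, edgeR adjusted p = 0.00083), the gene with rank 14 by p among 16343. With treatment only, the log2 difference was nearly the same, 0.98 ± 0.284 (SE), with an edgeR adjusted p of 0.806. Without the filter on low counts that fit gave an adjusted p of 0.0244. With the block, leaving out each replicate number in turn gave log2 differences from 0.97 to 1.06 and adjusted p-values from 9.88e-05 to 0.0111.

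Abca7 moved the opposite way. ABCA7 is a close relative of ABCA1 that moves phospholipid across membranes and takes part in phagocytosis. Abca7 (chromosome 10, 79996494 to 80015572, plus strand) was at 30.8, 30.5 and 29.2 CPM under DMSO and at 15.4, 22.2 and 18.6 CPM under GSK-126. The DMSO libraries were nearly level, the GSK-126 libraries were spread, and the groups did not overlap. With the block Abca7 fell to 0.614 of its DMSO level (95% interval 0.477 to 0.789, edgeR adjusted p = 0.0411). The log2 ratios within pairs were -0.99, -0.46 and -0.65. This call did not hold when a replicate number was left out (adjusted p from 0.083 to 0.126 over the 3 fits, with log2 differences from -0.81 to -0.56), nor in DESeq2 with the block (adjusted p = 0.0512).

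Abca1 and Abca7 were the 2 genes of the 10 whose groups did not overlap. Over all genes tested, 5.43% had every GSK-126 library above every DMSO library and 5.44% had every one below. Per base of exon (RPKM, CPM per kilobase of exon), the level of Abca1 was 6.80, 3.54 and 6.37 times that of Abca7 in the DMSO libraries and 24.9, 10.3 and 20.4 times in the GSK-126 libraries. The ratio was thus higher in each GSK-126 library than in any DMSO library, which follows from the opposite movement of the pair and is no separate test.

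The other transporter pair, Abcg1 and Abcg4, did not pass the test. ABCG1 and ABCG4 are half-transporters that pass cholesterol to lipoprotein particles that already carry lipid; Abcg1 is a textbook LXR target and Abcg4 is found mainly in the nervous system. Abcg1 (chromosome 17, 31057675 to 31117988, plus strand) stood at 55.3, 82.8 and 52.7 CPM under DMSO and at 51.9, 80.2 and 62.5 CPM under GSK-126. Replicate 2 was the highest in both groups, whereas it was the lowest for Abca1. With the block the fold was 1.02 with a 95% interval from 0.854 to 1.23, so the interval lay below that of Abca1, and the edgeR adjusted p was 0.925. The sign of its log2 difference (0.04) was not fixed: it was -0.066 without replicate 3. Abcg4 (chromosome 9, 44273188 to 44288615, minus strand) was at 35.0, 40.0 and 27.5 CPM under DMSO and at 22.4, 31.8 and 24.0 CPM under GSK-126. It was lower in each of the 3 pairs (log2 ratios -0.64, -0.33 and -0.19) while the groups overlapped. The log2 difference with the block was -0.39 (95% interval -0.72 to -0.06), with an unadjusted p of 0.0243 and an edgeR adjusted p of 0.212. Per base of exon the ratio of Abca1 to Abcg1 was 4.10, 1.41 and 3.81 under DMSO and 7.98, 3.08 and 6.56 under GSK-126. It went up within every pair although the groups overlapped, which takes in the rise of Abca1 and is no separate test.

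Mylip, which encodes the ligase IDOL, rose. IDOL is induced by LXRs and marks lipoprotein receptors for degradation. Mylip (chromosome 13, 45389742 to 45412022, plus strand) stood at 22.5, 10.8 and 24.0 CPM under DMSO and at 45.4, 16.7 and 36.8 CPM under GSK-126. GSK-126 replicate 2 lay below 2 of the DMSO libraries, so the groups overlapped, but each GSK-126 library exceeded the DMSO library of its own number. The log2 ratios within pairs were 1.01, 0.63 and 0.61. With the block the fold was 1.70 (95% interval 1.33 to 2.17, edgeR adjusted p = 0.0253). Leaving out any 1 replicate number ended the call, with adjusted p-values from 0.059 to 0.0783 and log2 differences from 0.63 to 0.84. The DESeq2 fit with the block gave an adjusted p of 0.0197.

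Soat1 rose as well. SOAT1, also called ACAT1, joins cholesterol to a fatty acid so that it can be stored in lipid droplets. Soat1 (chromosome 1, 156424525 to 156474331, minus strand) was at 128.7, 77.0 and 126.2 CPM under DMSO and at 170, 116 and 171 CPM under GSK-126. As for Abca1 and Mylip, replicate 2 was the lowest in both groups, and GSK-126 replicate 2 lay below DMSO replicates 1 and 3. The ratios within pairs were close to each other, at 0.40, 0.59 and 0.43 on the log2 scale. With the block Soat1 rose 1.39-fold (95% interval 1.18 to 1.63, edgeR adjusted p = 0.0334). The call held without replicate 1 (adjusted p = 0.0165) and was lost without replicate 2 (0.165) and without replicate 3 (0.187).

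**Figure D2:**
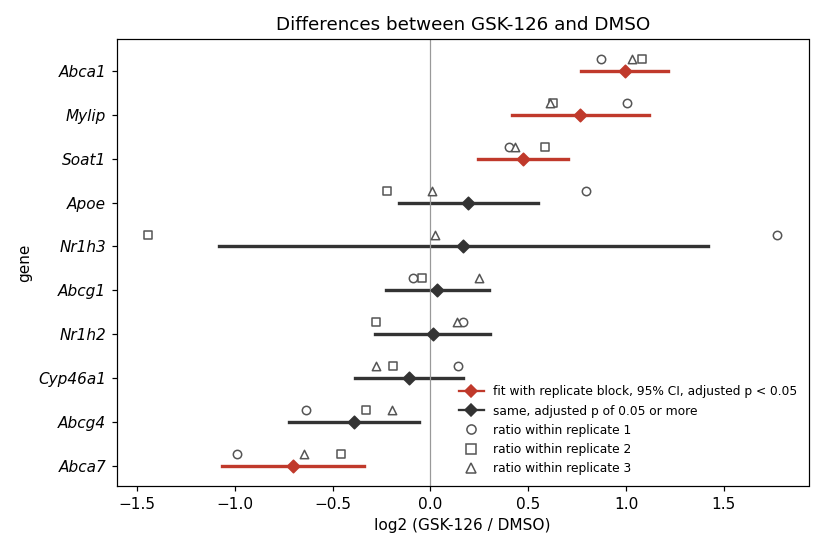
Log2 ratio of GSK-126 to DMSO for each gene: diamonds and bars give the edgeR fit with the replicate block and its 95% interval, red where the adjusted p was below 0.05, and open shapes give the ratio within each replicate number. Abca1, Mylip and Soat1 lie to the right of 0 and Abca7 to the left in all 3 pairs, while the 3 pairs of Nr1h3 span from -1.44 to 1.77.

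Neither receptor gene passed the test in any fit. Nr1h2 encodes LXR beta, the form found in most tissues, and Nr1h3 encodes LXR alpha, which is prominent in liver and macrophages. Nr1h2 (chromosome 7, 44549616 to 44553951, minus strand) stood at 48.6, 46.6 and 47.9 CPM under DMSO and at 54.5, 38.4 and 52.5 CPM under GSK-126. Its DMSO libraries were almost identical and its GSK-126 libraries lay on both sides of them. The log2 difference with the block was 0.01 (95% interval -0.28 to 0.31, edgeR adjusted p = 0.980), with a sign that turned when replicate 1 (-0.066) or replicate 3 (-0.051) was left out. Nr1h3 (chromosome 2, 91184061 to 91202834, minus strand) had 9, 24 and 37 counts under DMSO and 49, 8 and 39 counts under GSK-126. At this depth little could be said of it: the 95% interval of its log2 difference ran from -1.08 to 1.42, and the value of 0.17 became -0.61 without replicate 1. Of its exons, 1.35% lie under the same-strand gene Gm13783. Per base of exon Nr1h2 exceeded Nr1h3 in all 6 libraries, by 8.21-fold to 35.1-fold.

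Apoe was the most abundant of the 10 and did not pass the test. ApoE is the main lipoprotein of the brain and the usual acceptor of cholesterol exported by ABCA1. Apoe (chromosome 7, 19696109 to 19699188, minus strand) was at 1419, 892 and 1672 CPM under DMSO and at 2461, 765 and 1683 CPM under GSK-126. The highest and the lowest of the 6 values were both GSK-126 libraries. The log2 ratios within pairs were 0.79, -0.22 and 0.01, and the edgeR adjusted p with the block was 0.613. The direction rested on replicate 1: the log2 difference with the block was 0.19 with all libraries and -0.10 without that replicate. Cyp46a1 encodes the neuronal enzyme that hydroxylates cholesterol to a form that can leave the brain. Cyp46a1 (chromosome 12, 108334381 to 108362234, plus strand) stood at 50.5, 83.8 and 54.0 CPM under DMSO and at 55.6, 73.3 and 44.4 CPM under GSK-126. Replicate 2 was the highest in both groups, as for Abcg1 and Abcg4. Its log2 difference with the block was -0.11 (95% interval -0.39 to 0.16, edgeR adjusted p = 0.731).

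With the block the fitted log2 differences were above 0 for 7 of the 10 genes, against 49.6% of all genes tested, and below 0 for 3. Of the 7, Abcg1, Nr1h2, Nr1h3 and Apoe turned sign when a replicate number was left out. The median of the 10 was 0.10, against -0.00 over all genes tested. All 3 pairs went up for 3 genes (Abca1, Mylip and Soat1), against 19.7% of all genes, and down for 2 (Abcg4 and Abca7), against 19.3% of all genes.

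The genes differed widely in level. Per base of exon under DMSO, Apoe came first at 621 ± 186 RPKM (SD, n = 3), rank 23 of the 16343 genes. It was followed by Abca1 (24.8 ± 7.88 RPKM), Cyp46a1 (19.1 ± 5.56 RPKM), Nr1h2 (14.2 ± 0.292 RPKM) and Soat1 (11.3 ± 2.98 RPKM). The lower places went to Abcg1 (8.71 ± 2.28 RPKM), Abcg4 (6.56 ± 1.20 RPKM), Mylip (5.90 ± 2.24 RPKM), Abca7 (4.47 ± 0.127 RPKM) and Nr1h3 (1.11 ± 0.666 RPKM). Neighbours whose library ranges overlapped, and which this order does not separate, were Abca1 and Cyp46a1, Soat1 and Abcg1, Abcg1 and Abcg4, Abcg4 and Mylip, and Mylip and Abca7. Under GSK-126 Apoe (765 ± 397 RPKM) and Abca1 (48.9 ± 13.1 RPKM) again led, and here the range of Abca1 lay clear of that of Cyp46a1 (17.6 ± 4.42 RPKM). Mylip (10.2 ± 4.55 RPKM) stood above Abcg1 (8.89 ± 1.96 RPKM) in 2 of the 3 GSK-126 libraries. Each GSK-126 library held from 10.6 to 20.3 times as much Apoe as Abca1 per base, and each DMSO library from 21.4 to 28.4 times. This ratio takes in the rise of Abca1 given above and is no separate test.

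The replicates split the genes into patterns that both groups shared. Abca1, Mylip, Soat1 and Apoe were lowest in replicate 2 under DMSO and again under GSK-126, and Abcg1, Abcg4 and Cyp46a1 were highest there. The summed astrocyte markers were also lowest in replicate 2, at 2418 CPM under DMSO and 2521 CPM under GSK-126. So were the sums of the microglial, oligodendrocyte lineage, endothelial and mural, and cerebellar GABAergic neuron markers, in both groups. Fibroblast markers were lowest there under GSK-126 only. The summed granule neuron markers were highest in replicate 2, at 5770 CPM under DMSO and 4308 CPM under GSK-126. The 6 libraries were taken to be paired by replicate number. Across them, log2 CPM of Soat1 (r = 0.97) and Mylip (r = 0.93) followed that of Abca1 most closely among the 10. Abcg4 (r = -0.89) and Abca7 (r = -0.87) ran against it. Among all 11418 genes with a mean of at least 10 CPM, those most like Abca1 were Car12 (r = 0.994), Tmem165 (r = 0.991), Thbd (r = 0.991), Dock1 (r = 0.990) and Ano6 (r = 0.987). These correlations describe 6 libraries of both groups and have no test. They take in the differences between the groups reported above, and so are no separate result.

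**Figure D3:**
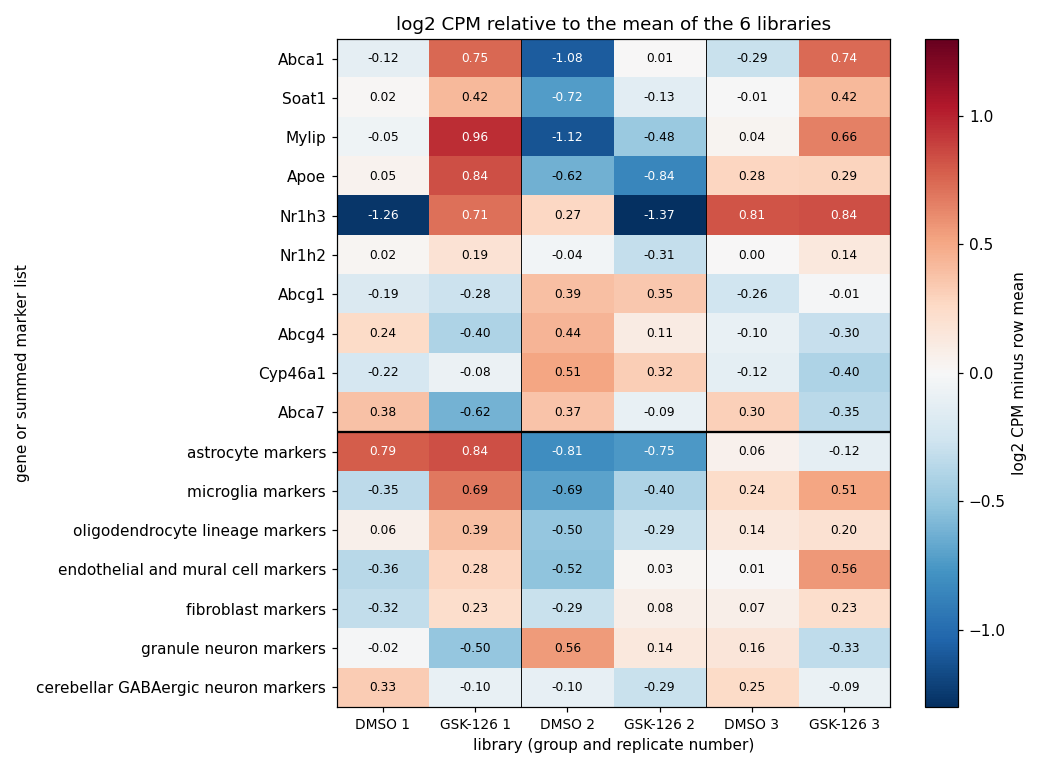
Log2 CPM of the 10 genes and of 7 summed marker lists in each library, relative to the mean of the 6 libraries in each line, with DMSO and GSK-126 of the same replicate number side by side. Replicate 2 is the lowest library of each group for Abca1, Soat1, Mylip and Apoe. It is also the lowest for the astrocyte, microglial, oligodendrocyte lineage, endothelial and mural, and GABAergic neuron markers. The granule neuron markers are lower under GSK-126 in each pair.

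The summed markers of several other cell types were higher under GSK-126, as were Abca1, Mylip and Soat1. The sum of the 10 astrocyte markers, which mark the main brain source of Apoe, had log2 ratios of 0.05, 0.06 and -0.18 within pairs 1, 2 and 3. Of these markers 5 had log2 differences above 0 with the block and 5 below, and none was called in either direction by edgeR, 2 having an unadjusted p under 0.05 (S100b higher and Slc1a3 lower). The sum of the 10 microglial markers ran from 356 to 681 CPM under DMSO and from 436 to 928 CPM under GSK-126, with log2 ratios within pairs of 1.03, 0.29 and 0.27. With the block 7 of the 9 tested had log2 differences above 0 and 2 below (Cx3cr1 and Aif1), 3 were called higher (C1qb, C1qc and Cd68), and Trem2 was at 0 in every library. Fibroblast markers summed to values that ran from 6698 to 8767 CPM and from 8801 to 9749 CPM, with ratios of 0.54, 0.37 and 0.15, all 5 above 0 and Col1a1 called higher. For the 6 endothelial and mural markers the sum ran from 130 to 189 CPM and from 191 to 276 CPM, with ratios of 0.64, 0.55 and 0.55. Of the 5 tested 4 were above 0, with Pdgfrb called higher, and Kdr was below (-0.0072). Pdgfrb made up most of this sum, with means of 106 of 155 CPM under DMSO and 164 of 231 CPM under GSK-126. For the 9 oligodendrocyte lineage markers the sum ran from 447 to 697 CPM and from 515 to 828 CPM, with ratios of 0.33, 0.21 and 0.06. Of these 6 were above 0, with Cspg4 called higher, and 3 were below (Mog, Sox10 and Pdgfra). The sum of the 8 granule neuron markers was lower in every pair, with ratios of -0.48, -0.42 and -0.49. Of these 7 were below 0, with 5 called lower (Neurod1, Rbfox3, Etv1, Gabra6 and Cbln1), and Pax6 was above 0 (0.041). The sum of the 6 markers of cerebellar GABAergic neurons ran from 194 to 261 CPM and from 170 to 195 CPM, with 4 below 0, Slc32a1 called lower, and Pvalb and Calb1 above 0 (both 0.35). Within the same pairs the log2 ratios of Abca1 were 0.87, 1.08 and 1.03. The part of these marker levels in the values of Abca1, Mylip, Soat1 and Abca7 was not tested.

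Other genes of the pathway were read from 7 lists with 65 genes, of which 59 were tested. With the block 17 were called higher and 2 lower, 10 of the 17 being genes of sterol synthesis. Outside sterol synthesis, 7 of 47 tested genes were called higher and 2 lower, in the fit that called 2.23% of all genes higher and 1.42% lower.

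Of 13 further LXR targets, 10 were tested. Their log2 differences with the block were all above 0, against 49.6% of all genes tested. The values ran from 0.01 (Smpdl3a) to 0.96, with a median of 0.41. Those called were Lpl, which encodes lipoprotein lipase (0.96, edgeR adjusted p = 0.0023), Fasn, the fatty acid synthase gene (0.54, adjusted p = 0.0143), and Scd1, a fatty acid desaturase gene (0.54, adjusted p = 0.015). Fasn stood at 363, 304 and 372 CPM under DMSO and at 488, 473 and 548 CPM under GSK-126, so the groups did not overlap. Fatty acid genes such as Fasn and Scd1 are not particular to LXRs, and what acted on them was not tested. Srebf1, a prime LXR target that drives fatty acid synthesis, had a log2 difference of 0.21 (adjusted p = 0.354). The Srebf1 stretch printed above is from its promoter window 3, the only one of its windows with the looser repeat. Counts per gene symbol do not separate its starts. Of the 8 LXR partners and coregulators none was called by edgeR or DESeq2 with the block, 1 had an unadjusted p under 0.05 in edgeR (Rxra), and the lowest p-values were those of Rxra (0.30, adjusted p = 0.236) and Ncoa2 (-0.22, adjusted p = 0.386). Their median was -0.01.

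Among 9 lipoproteins and lipoprotein receptors, 2 fell. The ApoE receptor gene Lrp8 fell by 0.51 (adjusted p = 0.0358), and Apod, a lipocalin gene, fell by 0.56 (adjusted p = 0.0232). Of 11 genes of intracellular cholesterol transport, Stard4, a cytosolic sterol carrier gene, rose by 0.71 (adjusted p = 0.011), and Lipa, the lysosomal esterase gene, had a log2 difference of 0.42 (adjusted p = 0.0535). Of the 5 oxysterol and bile acid enzyme genes tested none was called by edgeR or DESeq2 with the block, and 1 had an unadjusted p under 0.05 in edgeR (Cyp27a1). Cyp27a1 had a log2 difference of 1.34 (adjusted p = 0.198) at levels of at most 3.33 CPM in any library, and Cyp7b1 of 0.35 (adjusted p = 0.356).

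Among 4 tested genes of cholesteryl ester storage and hydrolysis, which act on the product of Soat1, Plin2 rose by 0.81 (adjusted p = 0.0048) and Nceh1 by 0.49 (adjusted p = 0.0418). PLIN2 coats lipid droplets and NCEH1 hydrolyses the esters. Plin2 stood at 58.4, 38.8 and 154 CPM under DMSO and at 117, 65.2 and 246 CPM under GSK-126, so replicate 2 was again the lowest in both groups.

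The median log2 difference with the block was 0.62 over 12 genes of sterol synthesis and its control. Of the 12, 10 rose, in the fit that called 2.23% of all genes higher. Among them were Fdft1 (0.94), Idi1 (0.88), Insig1 (0.75), Hmgcs1 (0.63), Lss (0.63), Cyp51 (0.62), Dhcr7 (0.51) and Srebf2 (0.43), with edgeR adjusted p-values from 0.0025 to 0.0416. Of the Fdft1 exons 18.3% lie under Ctsb, and of the Hmgcs1 exons 12.1% under Gm48342. For Scap it was 13.2%, under 5830462I19Rik, and for Idi1 9.22%, under Gm48574. The overlapping genes lie on the opposite strand, so those values are less certain. In 11 of the 12 every GSK-126 library lay above every DMSO library, against 5.43% of all genes tested. The exception was Scap, whose groups overlapped with a log2 difference of 0.05. Synthesis genes and Stard4 are classic targets of SREBP2, which is active when sterol in the cell is low, while Abca1 and Mylip are classic targets of LXRs, which are active when oxysterols are high. Genes of both kinds rose under GSK-126 in these libraries. The LXR targets Abcg1 (edgeR adjusted p = 0.925 with the block) and Srebf1 (0.354) did not pass the test. Sterol levels and LXR activity were not measured, and the cause of these differences was not tested.

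**Figure D4:**
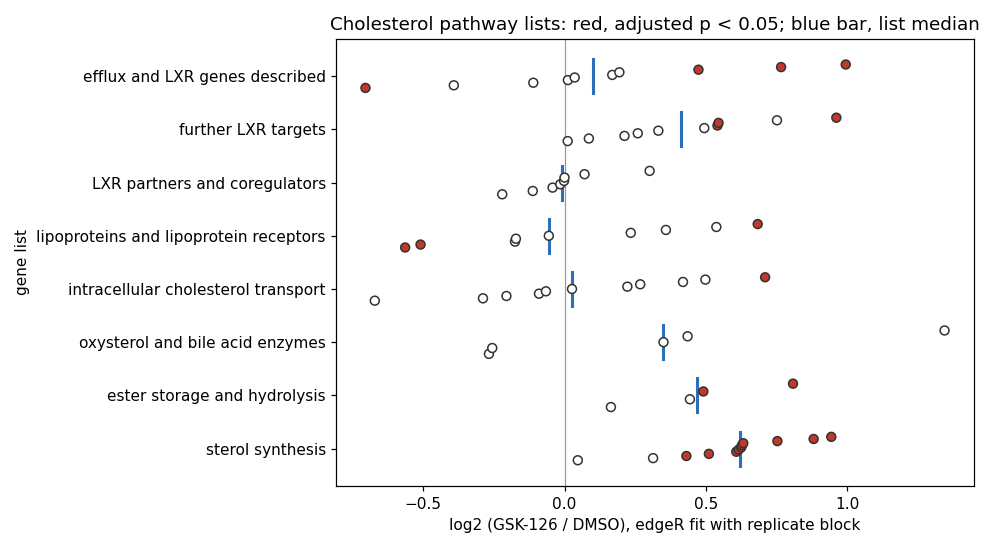
Log2 ratio of GSK-126 to DMSO (edgeR fit with the replicate block) of each tested gene in the 10 genes described and in 7 pathway lists, red where the adjusted p was below 0.05, with a blue bar at the list median. The medians run from -0.06 for lipoproteins and their receptors to 0.62 for sterol synthesis, against -0.00 over all genes.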

How the data were processed

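The 6 deposited tables hold whole-number read counts per gene symbol, made by the authors and not normalized. The study's methods state exon counting with HTSeq without a strand setting, so overlapping genes on opposite strands may share reads. The submitters' processing notes name Trimmomatic 0.38 and STAR 2.7.2b, and the build mm10. Summary lines that name no gene (5 per table) were left out. Reads over no feature made up 44.8% to 46.7% and reads assigned to genes 39.1% to 41.6%.

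Here filterByExpr by group left 16343 genes. The quasi-likelihood test of edgeR 4.0.16 with TMM factors was fitted to all 6 libraries with treatment as the only term, and again with the replicate number as a block. P-values were adjusted by Benjamini-Hochberg over all genes tested (threshold 0.05), SEs were taken from the F statistics, and intervals are 95%. Without molecular identifiers, limits from counts alone cover counting error only. The 95% intervals rest on the F statistics, and so also take in the spread left between libraries after the terms of the fit. The methods define a culture replicate as a preparation from pooled litters. Deviations from the group means correlated at 0.35, 0.50 and 0.52 for libraries sharing a number and from -0.41 to -0.01 for the other 6 combinations, so the numbers were taken to pair the libraries. No 2 libraries agreed within sampling noise (lowest chi-square per degree of freedom 9.98). Alternatives were DESeq2 1.42.0, RLE factors, no filter and leaving out libraries. The fits were tested on simulated data in which libraries of the same number shared an effect. That step therefore does not bear on the pairing. Its planted differences were larger than those, with the block, of every gene called among the 10 and in the pathway lists, for Abca1 only slightly. It therefore does not cover changes as small as those of Mylip, Soat1, Abca7 and the called pathway genes. CPM are TMM-scaled, ratios within pairs use a prior count of 2, and RPKM divide by the exon length of GENCODE M21 (GRCm38), which also gave the gene positions.

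The 10 genes and the lists were chosen with earlier results of these data known. The text names the 10 genes, the pathway genes called with the block (or, for a list with fewer than 2, those of lowest p until 2 were named) and the 5 genes most correlated with Abca1, except that some results are not reported here. Srebf1 and Scap were added after their values were seen.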

Additional observations from a re-analysis of the deposited data

How the results depend on the processing

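With the replicate block, 365 genes were called higher and 232 lower in place of 0 and 0, and 3 and 1 of the 10 genes. Leaving out each replicate number within the replicate block gave 125 to 396 genes higher (211 without replicate 3) and 53 to 308 lower (148 without replicate 3), with 1 to 2 of the 10 higher and 0 lower. DESeq2 called 33 higher and 15 lower, and with the replicate block 397 and 262, with 3 of the 10 higher. Without the filter, treatment only, 55 were higher and 30 lower, with 1 of the 10 higher (Abca1), where RLE factors gave 0 and 0. Added after the data were seen, the replicate block without the filter gave 708 and 428 (3 and 1 of the 10) and with RLE factors 357 and 217 (3 and 1). With treatment only, leaving out each library in turn called 0 of the 10. Of 160 combinations of a gene and an alternative, 124 kept sign and side of the threshold, 20 passed the threshold and 16 turned sign. Those that turned were Abcg1, Nr1h2, Nr1h3, Apoe and Cyp46a1. With treatment only, leaving out each library in turn moved the log2 difference of Abcg1 from -0.15 to 0.28, of Nr1h2 from -0.069 to 0.17, of Nr1h3 from -0.20 to 0.67, of Apoe from -0.12 to 0.64 and of Cyp46a1 from -0.32 to 0.16. With the replicate block and a replicate number left out, it turned to -0.066 for Abcg1 (without replicate 3), to -0.066 and -0.051 for Nr1h2 (without replicates 1 and 3), to -0.61 for Nr1h3 and to -0.10 for Apoe (both without replicate 1). None of these 5 genes passed the test in any fit, and the cause was not tested. With 3 libraries a group, p-values with treatment only cover no more than the spread between these libraries. With the replicate block they cover only the spread of the differences within these replicate numbers. Nr1h3, with 8 to 49 counts a library, is limited by depth.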
